A study of Mus musculus with 12 samples.

Results

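Glucuronidation enzymes were read in mouse liver after hepatocyte deletion of p62, of Tsc1 or of both. The members are Ugdh and 9 UDP-glucuronosyltransferases of the Ugt2 and Ugt3 families (Ugt2a3, Ugt2b1, Ugt2b5, Ugt2b34, Ugt2b35, Ugt2b36, Ugt2b38, Ugt3a1 and Ugt3a2). They were chosen by name, but with earlier results of these data known, and are 10 of the 23420 genes in each count table. Ugt2a1, Ugt2a2 and Ugt2b37 are not members and were put on the list of other transferases. All 10 had reads in every library and passed the filter on low counts in every fit.

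Whole liver pieces of C57BL/6 mice gave 12 poly(A) RNA-seq libraries, 3 in each of 4 groups. Tsc1/p62Δhep mice carried floxed alleles of Tsc1 and of Sqstm1, the gene of p62, and had both deleted by Cre driven by the albumin promoter, a promoter of hepatocytes. Tsc1Δhep mice carried floxed Tsc1 with the same kind of Cre, p62Δhep mice carried floxed Sqstm1 with it, and p62F/F mice carried floxed Sqstm1 and no Cre. Cre is thus in every group but p62F/F. By the titles the deletion is specific to hepatocytes, and whether the other liver cell types keep the targeted genes was not tested. The labels give neither age nor sex, and no diet per sample. RNA of the Y chromosome genes Ddx3y, Eif2s3y and Uty was in every library, so each held RNA of male liver. The labels do not say either that each library is a separate animal. The p-values here thus reflect the spread among these samples, part of which could be technical.

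Glucuronidation makes bile pigments, steroids, bile acids and drugs soluble by joining glucuronic acid to them. Ugdh, in the cytosol, oxidises UDP-glucose to UDP-glucuronic acid, the sugar donor. The transferases sit in the membrane of the endoplasmic reticulum and move the sugar onto the acceptor. Enzymes of the Ugt2b group take steroids, bile acids and many drugs. Enzymes of the Ugt3 family differ in using other UDP-sugars, such as UDP-N-acetylglucosamine for human UGT3A1 and UDP-glucose or UDP-xylose for human UGT3A2. p62 binds KEAP1, the inhibitor of the transcription factor NRF2, and Ugdh is among the genes known to respond to NRF2. TSC1 belongs to a complex that holds back the growth kinase mTORC1.

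The promoters of 9 members were read from 250 bases before to 50 bases after the start in a RefSeq table of build GRCm38.p6. The motif letters were chosen after the sequences were seen, so the counts are a description. A pattern of the type bound by HNF1 factors, GTTA and TAAC parted by any 5 bases, which reads the same on both strands, lay in 7 of these 9 promoters. These were all 6 Ugt2b members and Ugt3a1. Over the whole table, 0.389% of 27025 genes had it. It was not in the promoters of Ugt2a3 or Ugdh, nor in those of the Ugt1a genes read. A stricter form, with AT, any base and AT as the middle 5 bases, was in 0 members and in 3 of 32851 promoters. For each match, 90 bases are shown 5′ to 3′ on the gene's own strand, with the matched bases in capitals. They are printed because the match sits at nearly the same distance from the start, 61 to 89 bases before it, in every Ugt2b member.
Ugt2b1, chr5:86926533-86926622, minus strand: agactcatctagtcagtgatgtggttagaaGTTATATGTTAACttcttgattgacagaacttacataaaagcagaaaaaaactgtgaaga
Ugt2b5, chr5:87140342-87140431, minus strand: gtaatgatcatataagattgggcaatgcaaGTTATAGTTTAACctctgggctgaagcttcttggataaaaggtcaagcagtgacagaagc
Ugt2b34, chr5:86906951-86907040, minus strand: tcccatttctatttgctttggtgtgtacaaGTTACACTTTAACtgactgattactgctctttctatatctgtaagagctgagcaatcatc
Ugt2b35, chr5:87000760-87000849, plus strand: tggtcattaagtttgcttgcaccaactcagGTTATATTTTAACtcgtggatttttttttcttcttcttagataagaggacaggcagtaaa
Ugt2b36, chr5:87092560-87092649, minus strand: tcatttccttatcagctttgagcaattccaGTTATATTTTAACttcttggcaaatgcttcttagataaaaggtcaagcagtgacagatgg
Ugt2b38, chr5:87424208-87424297, minus strand: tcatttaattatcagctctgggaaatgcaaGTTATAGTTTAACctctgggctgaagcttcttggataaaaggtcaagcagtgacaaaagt
Ugt3a1, chr15:9279669-9279758, plus strand: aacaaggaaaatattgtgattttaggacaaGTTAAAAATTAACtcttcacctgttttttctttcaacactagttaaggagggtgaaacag

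Ugdh, on chromosome 5 as well, had a different element. The core letters of the antioxidant response element, through which NRF2 acts, TGACNNNGC on either strand, matched its promoter at 2 places, 132 and 94 bases before the start. Of all genes in the table, 13.99% had this core in the same window, and 0 of the transferase members did. The first of these matches is in capitals. The second lies on the other strand, in the letters gcgtggtca of the same stretch.
Ugdh, chr5:65435915-65436004, minus strand: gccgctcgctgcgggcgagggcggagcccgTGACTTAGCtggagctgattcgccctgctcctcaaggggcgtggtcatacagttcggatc

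Close paralogs can share reads, which bears on which rows can be trusted singly. In GENCODE transcripts of GRCm38.p6, 30.4% of the 75-base windows of Ugt2b5 and 28.0% of those of Ugt2b38 also occurred in another gene, namely in each other or in Ugt2b37. The coding sequences of Ugt2b5 and Ugt2b38 are 97.0% identical. Ugt2b5 had far more counts than Ugt2b38 in every library, so the Ugt2b38 row, at 9 to 64 counts a library, is uncertain. The windows of Ugt2b1, Ugt2b35 and Ugt2b36 were shared with 0 other genes, and those of Ugt2a3, Ugt2b34, Ugt3a1 and Ugt3a2 at 0.858% to 1.81%. Ugt3a1 and Ugt3a2 are 93.3% identical in their coding sequence but differ enough along it to be told apart by reads of this length. Ugdh overlaps Gm43552 and Gm43289 on the same strand.

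Total counts were 15792048 to 33377247 a library. The deleted genes were read first. Sqstm1 stood at 14.4, 17.4 and 19.6 CPM in Tsc1/p62Δhep, against 1210, 789 and 1002 CPM in Tsc1Δhep, and the p62Δhep libraries had 17.5, 12.4 and 19.8 CPM, against 316, 351 and 349 CPM in p62F/F. Tsc1 had 9.35 to 13.7 CPM in Tsc1/p62Δhep, 5.39 to 10.9 CPM in Tsc1Δhep, 26.0 to 39.7 CPM in p62Δhep and 28.2 to 34.9 CPM in p62F/F, and the highest Tsc1Δhep library was library 3. The ribosomal precursor Rn45s took 0.0872% to 1.21% of a library in Tsc1/p62Δhep and 0.0751% to 0.158% in Tsc1Δhep. In p62Δhep it took 1.91% to 3.50% and in p62F/F 2.30% to 2.68%. Its share was thus higher in every library of these 2 groups than in any Tsc1-deleted library, and the cause was not tested. Tsc1/p62Δhep library 1 stood above its group with 1.21%. Unless a sentence says otherwise, CPM, the usual counts scaled to library size, use TMM factors within the pair of groups that share a table.

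**Figure D1:**
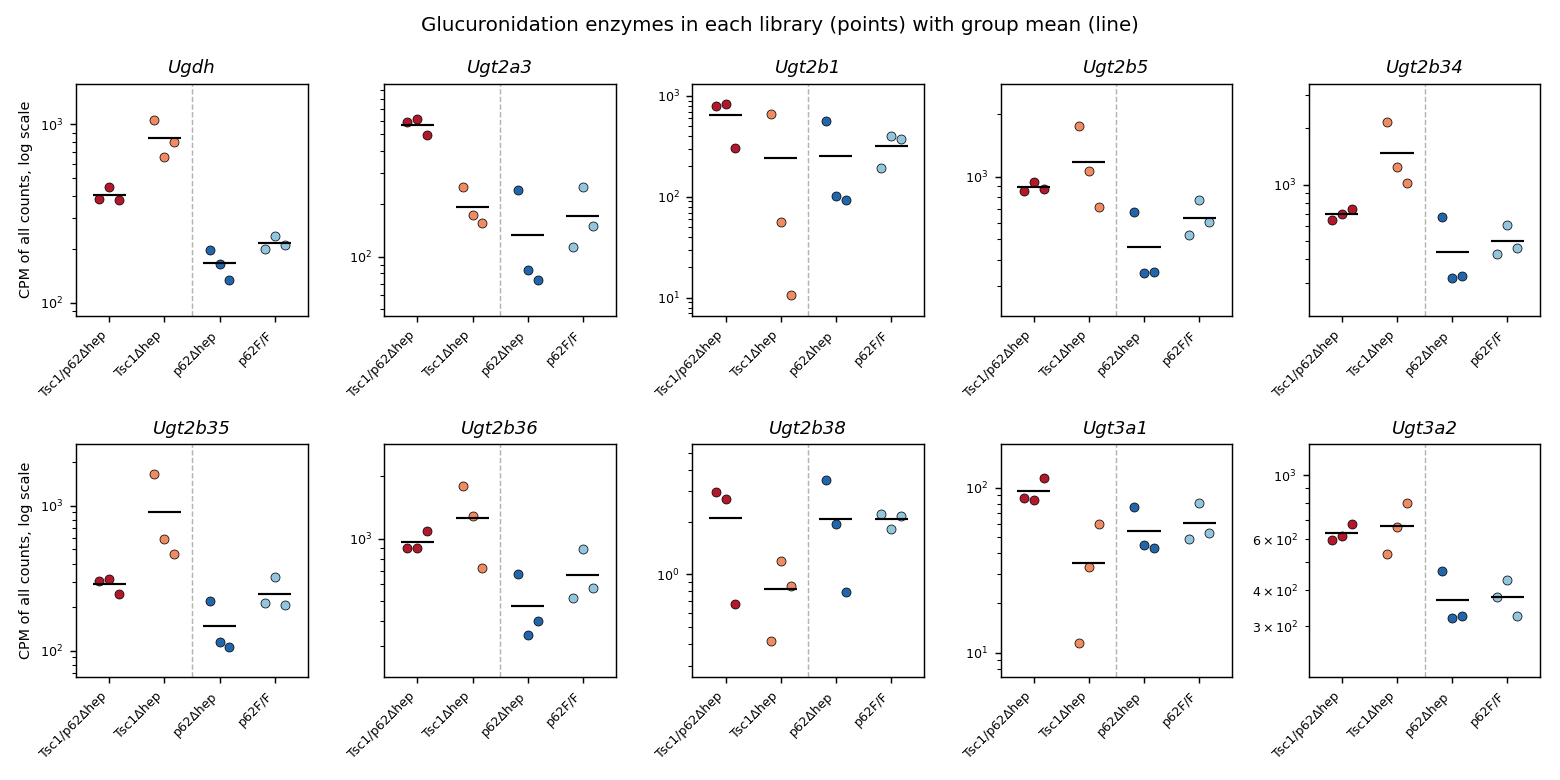
Level of each member in each library, in CPM of all counts of that library (log axis, its range set for each gene), with 1 point per library and a line at the group mean (n = 3). The dashed line parts the 2 count tables. Ugt2a3 and Ugt3a1 lie higher in every Tsc1/p62Δhep library than in any Tsc1Δhep library, and Ugdh, Ugt2b34 and Ugt2b35 lie lower on this scale.

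Per kilobase of transcript, Ugt2b36 and Ugt2b5 were the highest members in all 4 groups. On CPM of the library total, per kilobase, Ugt2b36 averaged 510 ± 56.7 in Tsc1/p62Δhep, 669 ± 283 in Tsc1Δhep, 249.2 ± 93.5 in p62Δhep and 351 ± 106 in p62F/F (SD, n = 3 each). Ugt2b5 averaged 478 ± 27.4 in Tsc1/p62Δhep, 632 ± 281 in Tsc1Δhep, 246 ± 104 in p62Δhep and 341 ± 69.0 in p62F/F (SD, n = 3 each). The ranges of these genes overlapped in every group. The 2 counts stayed close in each library, with 0.799 to 1.05 Ugt2b5 counts for each Ugt2b36 count in all 12. Ugt3a1 was the ninth and Ugt2b38 the lowest member in every group.

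The order in between differed with the group. In Tsc1/p62Δhep, Ugt3a2, Ugt2a3, Ugt2b1 and Ugt2b34 followed at 229 to 270 per kilobase, with overlapping ranges between neighbours, and Ugdh at 158 ± 14.4 and Ugt2b35 at 85.7 ± 11.2 lay apart from their neighbours. In Tsc1Δhep, Ugt2b34 came next at 482 ± 196 and Ugdh at 329 ± 80.5, while Ugt2a3 was the eighth at 91.2 ± 24.0. There, neighbours from Ugt2b36 down to Ugt2a3 overlapped. In p62Δhep and p62F/F the next places were held by Ugt3a2 and Ugt2b34, with overlapping ranges.

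Loss of p62 in Tsc1-deleted liver was read by comparing Tsc1/p62Δhep with Tsc1Δhep. It came with more Ugt2a3 and Ugt3a1 RNA. In the quasi-likelihood test of edgeR, adjusted by Benjamini-Hochberg over 12620 genes, 2 of 10 members were higher and 0 lower at an adjusted p below 0.05. Of all genes tested, 9.25% were called higher and 14.9% lower (24.2% in either direction), so the share of members called is near the background. The members' median log2 fold change was 0.10, beside -0.05 over all genes. DESeq2, which gave Ugt2b1 no p, called 3 members higher (Ugt2a3, Ugt3a1 and Ugt2b38) and 2 lower (Ugdh and Ugt2b35), where it called 14.1% of all genes higher and 18.8% lower (32.9% either way).

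Ugt2a3, a transferase known in humans to act on bile acids, stood at 660, 681 and 577 CPM in Tsc1/p62Δhep, against 236, 156 and 128 CPM in Tsc1Δhep. Every Tsc1/p62Δhep library lay far above the highest Tsc1Δhep library. Its log2 fold change was 1.88 ± 0.29 (SE; adjusted p = 0.00498). The call held in each of 14 alternative fits, including each fit without 1 library, in which the highest adjusted p was 0.0306.

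Ugt3a1 stood at 97.2, 94.4 and 132 CPM in Tsc1/p62Δhep, against 10.8, 29.9 and 49.5 CPM in Tsc1Δhep. The groups did not overlap, and Tsc1Δhep library 1 was by far the lowest of its group. The log2 fold change was 1.85 ± 0.50 (SE; adjusted p = 0.0333). The call was lost with library totals in place of TMM (adjusted p = 0.0708) and without Tsc1Δhep library 2 (0.119) or Tsc1/p62Δhep library 1 (0.0884), 2 (0.0822) or 3 (0.0957). Its neighbour and close paralog Ugt3a2 stood at 664, 684 and 781 CPM in Tsc1/p62Δhep, against 503, 598 and 657 CPM in Tsc1Δhep, without overlap on this TMM scale but with overlap on CPM of the library total, with a log2 fold change of 0.28 ± 0.22 that did not pass the test (adjusted p = 0.379). The sign of that value turned with library totals (-0.08).

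The ratio of these 2 genes needs no scaling between libraries. There were 14.7, 13.8 and 16.9 Ugt3a1 counts for each 100 Ugt3a2 counts in Tsc1/p62Δhep, against 2.15, 5.0 and 7.53 in Tsc1Δhep. In p62Δhep there were 16.3, 14 and 13.3, against 12.9, 18.6 and 16.3 in p62F/F. The Tsc1Δhep libraries were thus below all 9 others.

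Ugdh, which supplies the sugar donor, stood at 429, 497 and 439 CPM in Tsc1/p62Δhep, against 998, 591 and 659 CPM in Tsc1Δhep. Every Tsc1/p62Δhep library was below every Tsc1Δhep library, as was the case for 23.4% of all genes. The log2 fold change of -0.72 ± 0.27 (SE) did not pass edgeR's test (adjusted p = 0.0865). It passed with DESeq2 (0.0427), with library totals (0.0198) and with all 12 libraries in 1 fit (0.0210).

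The Ugt2b transferases share the HNF1-type pattern in their promoters, but the sign of the fold change differed from gene to gene and 0 of 6 passed edgeR's test. Ugt2b35 stood at 340, 350 and 283 CPM in Tsc1/p62Δhep, against 1565, 533 and 383 CPM in Tsc1Δhep. The groups did not overlap, and Tsc1Δhep library 1 was far above all others. The log2 fold change was -1.35 ± 0.51 (SE; adjusted p = 0.0904), and it passed with DESeq2 (0.0287), library totals (0.0368), all 12 libraries in 1 fit (0.0316) and without Tsc1Δhep library 3 (0.0202). Without Tsc1Δhep library 1 it was -0.49 (adjusted p = 0.168).

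Ugt2b34 stood at 722, 782 and 860 CPM in Tsc1/p62Δhep, against 2025, 1126 and 837 CPM in Tsc1Δhep. On this TMM scale the groups overlapped at a single library, Tsc1Δhep library 3. On CPM of the library total they did not overlap, with at most 743.8 in Tsc1/p62Δhep and at least 1020 in Tsc1Δhep. Its log2 fold change was -0.75 ± 0.35 (SE; adjusted p = 0.147), and it passed with library totals (0.0382) and without Tsc1Δhep library 3 (0.0338).

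Ugt2b1 was the most variable member. It stood at 890, 921 and 353 CPM in Tsc1/p62Δhep, against 625, 51.4 and 8.68 CPM in Tsc1Δhep. Both groups spread widely and overlapped, and the log2 fold change was 1.66 ± 1.25 (SE; adjusted p = 0.350). Without Tsc1Δhep library 1 it was 4.59 (adjusted p = 0.0115).

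The abundant pair had mean differences near 0. Ugt2b5 stood at 950, 1054 and 1003 CPM in Tsc1/p62Δhep, against 1643, 957 and 590 CPM in Tsc1Δhep, with a log2 fold change of -0.09 ± 0.37 (adjusted p = 0.881). Ugt2b36 stood at 1004, 1005 and 1256 CPM in Tsc1/p62Δhep, against 1684, 1160 and 590 CPM in Tsc1Δhep, with a log2 fold change of -0.07 ± 0.38 (adjusted p = 0.902). For both genes the Tsc1Δhep libraries lay on both sides of the other group, and the fits do not show that the groups were alike. Ugt2b38 had 47, 46 and 12 counts in Tsc1/p62Δhep, against 9, 40 and 15 in Tsc1Δhep, and its log2 fold change of 1.68 ± 0.64 did not pass (adjusted p = 0.0910). It passed with DESeq2 (0.0464), with all 12 libraries in 1 fit (0.0468) and without Tsc1/p62Δhep library 3 (0.0492).

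**Figure D2:**
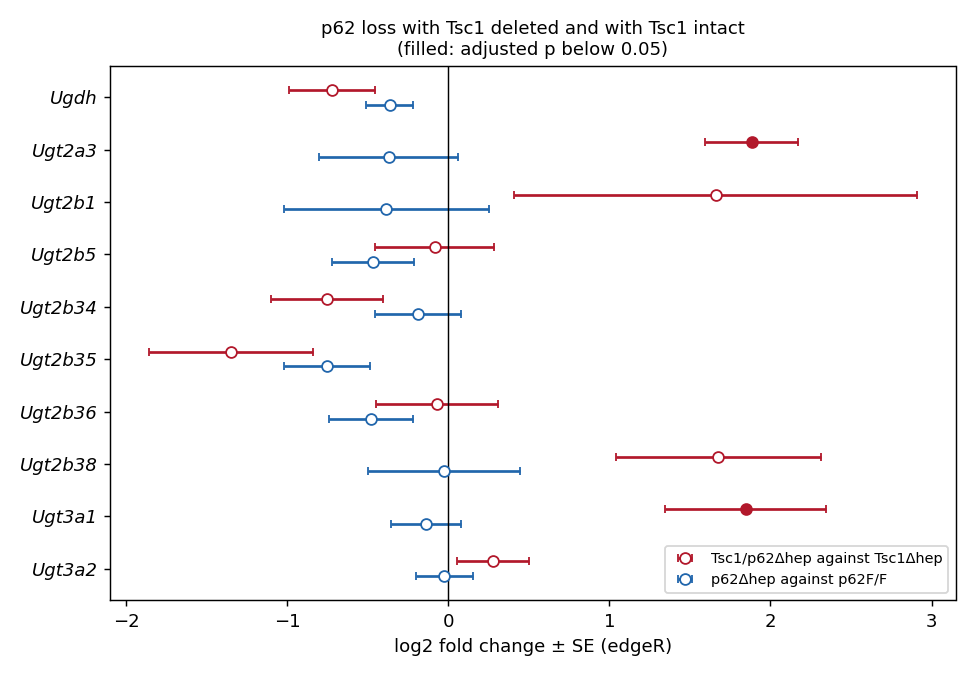
Log2 fold change with its standard error for each member, from edgeR fits within each table (3 libraries per group). Red points are Tsc1/p62Δhep against Tsc1Δhep and blue points are p62Δhep against p62F/F, and filled points passed an adjusted p below 0.05. The filled points are Ugt2a3 at 1.88 and Ugt3a1 at 1.85. All blue points lie below 0, the nearest to it being Ugt3a2 at -0.025.

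Counted without a test on the TMM scale, 3 of 10 members were higher in every Tsc1/p62Δhep library than in any Tsc1Δhep library and 2 were lower in every one, beside 22.3% and 23.4% of all genes (45.7% either way). The scaling matters in this comparison. Library totals alone moved the median of all genes to -0.40, and 14.7% of the calls were then higher, with 576 higher and 3337 lower, against 38.2% with TMM, with 1167 higher and 1886 lower.

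Shares within the 9 transferases, taken from the counts of each library, do not depend on that scaling. They do depend on each other, because a higher count of 1 gene lowers the shares of the rest. Ugt2a3 made up 11.9 ± 0.75% of these counts in Tsc1/p62Δhep and 3.39 ± 0.55% in Tsc1Δhep, and 5.31 ± 1.23% in p62Δhep and 5.57 ± 0.97% in p62F/F (SD, n = 3 each). Ugt2b34 made up 14.7 ± 1.52% in Tsc1/p62Δhep and 24.9 ± 0.80% in Tsc1Δhep, and 19.0 ± 0.18% in p62Δhep and 16.9 ± 0.77% in p62F/F. Ugt2b35 made up 6.02 ± 0.54% in Tsc1/p62Δhep and 14.1 ± 4.15% in Tsc1Δhep, and 6.39 ± 0.41% in p62Δhep and 8.33 ± 0.69% in p62F/F. In each of these 3 genes the Tsc1/p62Δhep and Tsc1Δhep libraries did not overlap. The same held for Ugt3a1, with 1.69% to 2.52% in Tsc1/p62Δhep and 0.130% to 1.525% in Tsc1Δhep. Ugt2b5 held 17.8% to 22.0% of the counts over all 12 libraries.

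**Figure D3:**
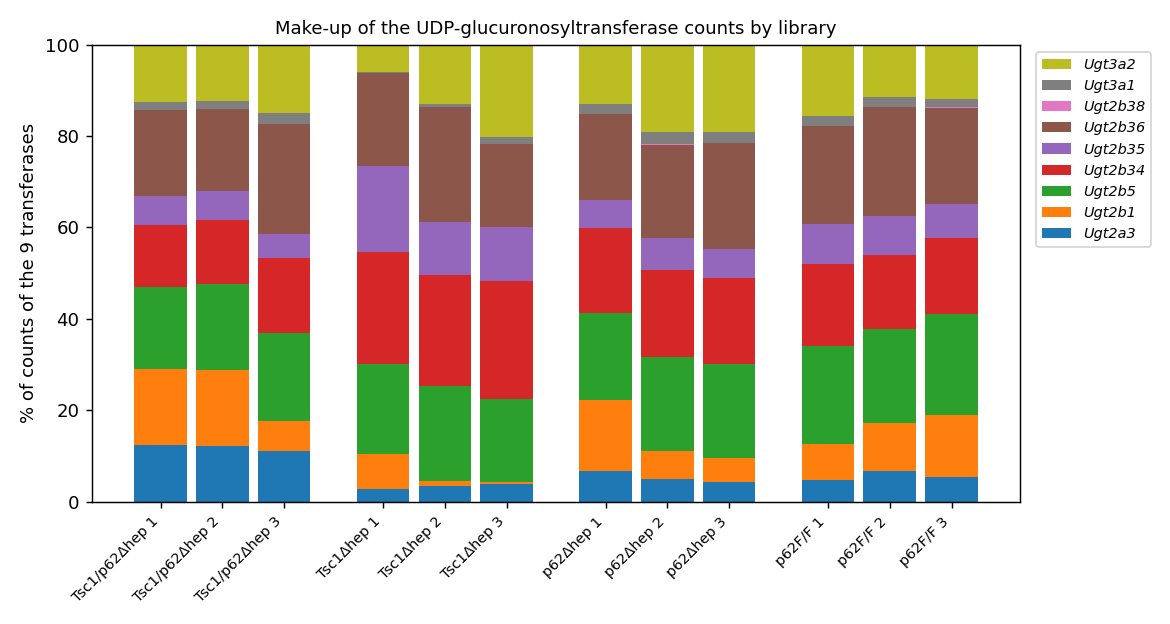
Share of each transferase in the summed counts of the 9 transferases, in percent, with 1 bar per library. Ugt2a3 at the bottom takes 11.01% to 12.4% in Tsc1/p62Δhep and 2.85% to 3.94% in Tsc1Δhep, while Ugt2b34 and Ugt2b35 take more in Tsc1Δhep.

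In liver with intact Tsc1, p62Δhep was compared with p62F/F. Because p62F/F had no Cre, the effects of p62 loss and of Cre cannot be told apart. Neither edgeR nor DESeq2 called any of the 10 members. edgeR called 0.0159% of 12567 genes, both of them lower, and DESeq2 1.34%, with 0.263% higher and 1.08% lower. At an unadjusted p below 0.05 there were 2 members, Ugdh and Ugt2b35, beside 8.12% of all genes. All 10 log2 fold changes were below 0, with a median of -0.37 beside 0.00 over all genes.

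Ugdh stood at 183, 178 and 140 CPM in p62Δhep, against 217, 220 and 207 CPM in p62F/F. The groups did not overlap, as was so for 6.65% of all genes in this direction and 12.8% in either, and 0 of the other members had separate groups. The log2 fold change was -0.37 ± 0.15 (SE; unadjusted p = 0.0391, adjusted p = 0.594). Ugt2b35 stood at 204, 123 and 109 CPM in p62Δhep, against 231, 300 and 203 CPM in p62F/F, with a log2 fold change of -0.75 ± 0.27 (SE; unadjusted p = 0.0238, adjusted p = 0.539). Its p62Δhep library 1 reached just into the range of p62F/F.

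In p62Δhep, library 1 stood apart from libraries 2 and 3. Ugt2a3 had 221, 89.7 and 75.6 CPM in p62Δhep, against 123, 231 and 146 CPM in p62F/F. Ugt2b1 had 516, 109 and 95.6 CPM in p62Δhep, against 207, 369 and 366 CPM in p62F/F. Ugt2b34 had 623, 343 and 336 CPM in p62Δhep, against 464, 569 and 449 CPM in p62F/F. For each of these genes library 1 lay within or above the range of p62F/F, and libraries 2 and 3 lay below that range.

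The same held at smaller size for the abundant pair. Ugt2b5 had 628, 367 and 361 CPM in p62Δhep, against 563, 719 and 591 CPM in p62F/F, and Ugt2b36 had 621, 366 and 411 CPM in p62Δhep, against 559, 828 and 566 CPM in p62F/F. The Ugt3 members and Ugt2b38 had smaller differences. Ugt3a1 had 70.2, 48.0 and 44.9 CPM in p62Δhep, against 52.8, 74.6 and 51.7 CPM in p62F/F, and Ugt3a2 had 430, 343 and 337 CPM in p62Δhep, against 410, 402 and 318 CPM in p62F/F. Ugt2b38 had 64, 34 and 20 counts in p62Δhep, against 44, 38 and 39 in p62F/F. The macrophage and Kupffer markers summed to 469, 780 and 737 CPM in the p62Δhep libraries and to 428, 438 and 487 CPM in p62F/F, so the libraries low in these enzymes were high in those markers. Their part in the result was not tested.

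Whether the change with p62 loss differed between the Tsc1 backgrounds was tested by an interaction term over all 12 libraries. It was called for 2 of 10 members, both higher, where 6.76% of 13231 genes were called higher and 9.32% lower (16.1% either way). For Ugt2a3 the change was larger with Tsc1 deleted by 2.24 ± 0.56 on the log2 scale (SE; adjusted p = 0.0200). That call was lost without p62F/F library 2 (0.0524) or p62Δhep library 2 (0.0523). For Ugt3a1 the difference was 1.97 ± 0.59 (SE; adjusted p = 0.0419), and it was lost with library totals (0.0943) and without 9 of the 12 libraries in turn, with adjusted p-values from 0.0605 to 0.102. The other 8 members did not pass, with Ugt2b38 nearest at an adjusted p of 0.179, and Ugt2b1 passed without Tsc1Δhep library 1 (4.96, adjusted p = 0.0165).

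Levels were also set side by side across the tables, on CPM of the library total and with no test, because the Tsc1 genotype and the table cannot be told apart. Ugdh averaged 838 ± 205 in Tsc1Δhep and 217 ± 18.3 in p62F/F, a 3.87-fold difference, and the libraries did not overlap. Ugt2b35 averaged 906 ± 657 in Tsc1Δhep and 248 ± 64.6 in p62F/F, and Ugt2b34 averaged 1471 ± 598 in Tsc1Δhep and 500.4 ± 97.5 in p62F/F, again with no overlap. Ugt3a2 was also higher in Tsc1Δhep and Ugt2b38 lower, without overlap. Ugt2a3, Ugt2b1, Ugt2b5, Ugt2b36 and Ugt3a1 overlapped between these 2 groups. Where p62 was absent from both, Ugt2a3 averaged 567 ± 59.6 in Tsc1/p62Δhep and 132 ± 92.9 in p62Δhep, a 4.30-fold difference with no overlap. Ugdh averaged 403 ± 36.8 in Tsc1/p62Δhep and 166 ± 31.4 in p62Δhep, also with no overlap. Ugt2b5, Ugt2b35, Ugt2b36, Ugt3a1 and Ugt3a2 were likewise higher in Tsc1/p62Δhep without overlap, so such a difference is not particular to Ugt2a3 and Ugdh. Ugt2b1, Ugt2b34 and Ugt2b38 overlapped. The share of all genes without overlap was not counted across the tables. Summed over the 6 Ugt2b members, the level was 3482 ± 224 in Tsc1/p62Δhep, 5058 ± 2635 in Tsc1Δhep, 1768 ± 901 in p62Δhep and 2367 ± 573 in p62F/F.

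The other transferases of the liver are mainly the Ugt1a genes, which share their last exons and differ in the first. From 51.2% to 78.8% of their 75-base windows occur in another Ugt1a gene, so how reads were divided among these rows bears on every value. In Tsc1/p62Δhep against Tsc1Δhep, 1 of the 7 tested genes of this list was higher and 2 lower, with a median log2 fold change of 0.54, where that of all genes was -0.05. Ugt1a9, a transferase of phenols, stood at 25.2, 33.0 and 12.2 CPM in Tsc1/p62Δhep, against 362, 109 and 209 CPM in Tsc1Δhep. It fell by 3.27 ± 0.54 on the log2 scale (SE; adjusted p = 0.00627). Ugt1a7c stood at 0.353, 0.328 and 0.130 CPM in Tsc1/p62Δhep, against 14.4, 4.31 and 2.67 CPM in Tsc1Δhep, and fell by 4.70 ± 0.81 (SE; adjusted p = 0.00704).

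Both Ugt1a falls held without each library in turn, with a highest adjusted p of 0.0391. Ugt1a6b stood at 57.7, 68.3 and 59.0 CPM in Tsc1/p62Δhep, against 26.6, 46.7 and 27.8 CPM in Tsc1Δhep (log2 fold change 0.87 ± 0.27, adjusted p = 0.04998), and its call was lost in 5 of the 6 fits without 1 library, with adjusted p-values up to 0.167. Ugt1a1, the bilirubin transferase, stood at 241, 241 and 203 CPM in Tsc1/p62Δhep, against 219, 120 and 132 CPM in Tsc1Δhep, and was not called. Ugt1a9 stood at 4.14 to 16.7 CPM in p62Δhep, against 11.2 to 22.8 CPM in p62F/F. In p62Δhep against p62F/F, 0 of 6 tested genes of the list were called.

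**Figure D4:**
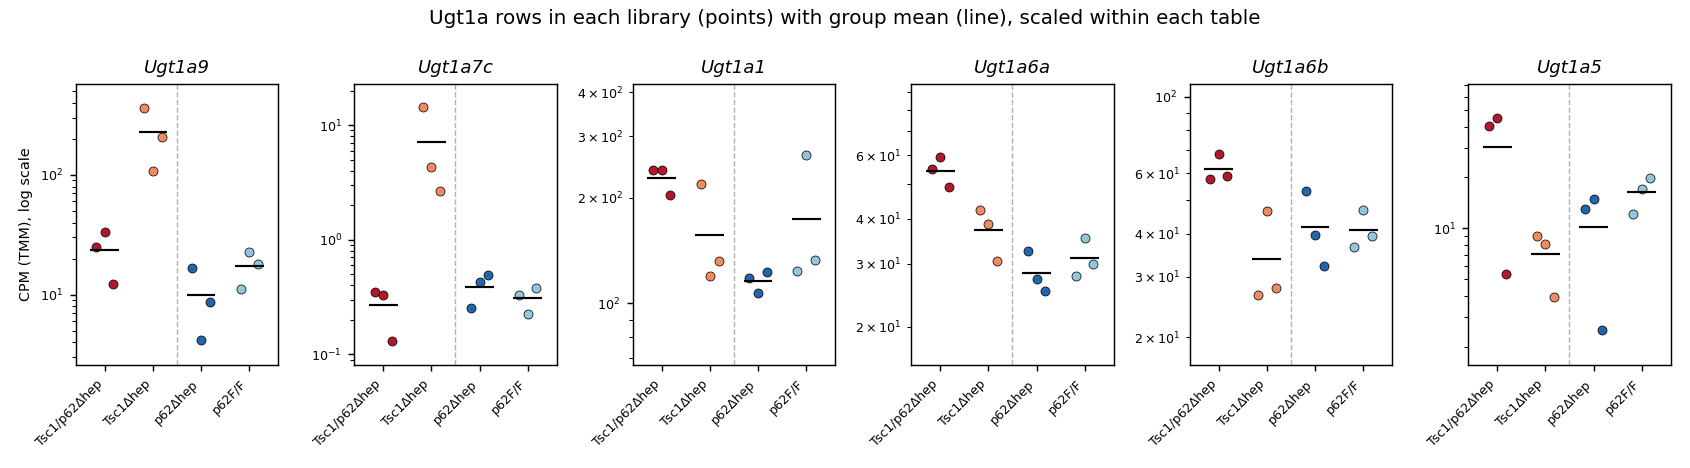
Level of 6 Ugt1a rows in each library, in CPM scaled by TMM within each table (log axis, its range set for each gene), with 1 point per library and a line at the group mean (n = 3). Ugt1a9 and Ugt1a7c lie higher in the 3 Tsc1Δhep libraries than in every other library.

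Genes of sugar nucleotide supply and transport, on either side of Ugdh, gave 2 higher and 2 lower of 8 in Tsc1/p62Δhep against Tsc1Δhep (median log2 fold change -0.46). Without Tsc1/p62Δhep library 1 or 2 they gave 0 of either. Of all genes in this comparison, 9.25% were called higher and 14.9% lower. Uxs1, which turns UDP-glucuronic acid into UDP-xylose and so uses the product of Ugdh, stood at 8.12, 5.05 and 8.31 CPM in Tsc1/p62Δhep, against 39.3, 26.2 and 13.4 CPM in Tsc1Δhep. Its log2 fold change of -1.88 ± 0.42 (SE; adjusted p = 0.0178) did not hold without Tsc1Δhep library 2 (0.0557) or Tsc1/p62Δhep library 1 (0.0684), 2 (0.0796) or 3 (0.0524). The rows Pgm1 and Pgm2 are phosphoglucomutases whose mouse symbols have been exchanged between annotation versions. Pgm1 fell (-2.24 ± 0.50, adjusted p = 0.0177) and Pgm2 rose (0.88 ± 0.24, adjusted p = 0.0356). The first call was lost without Tsc1/p62Δhep library 1 (0.0703) or 2 (0.0768), and the second in 5 of the 6 fits without 1 library, with a highest adjusted p of 0.131.

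Of 8 tested genes that break glucuronate down or lead from it to ascorbate, 4 rose and 1 fell (median 0.82), but 0 of either passed without Tsc1/p62Δhep library 1. Dcxr, the L-xylulose reductase of glucuronate breakdown, stood at 95.4, 78.3 and 61.5 CPM in Tsc1/p62Δhep, against 30.02, 40.7 and 25.0 CPM in Tsc1Δhep (log2 fold change 1.30 ± 0.27, adjusted p = 0.0133). Sord, the sorbitol dehydrogenase, averaged 1964 ± 97.7 CPM in Tsc1/p62Δhep and 919.5 ± 134 CPM in Tsc1Δhep (1.10 ± 0.23, adjusted p = 0.0140). Rgn, the lactonase of ascorbate synthesis, had 2254, 2266 and 2039 CPM in Tsc1/p62Δhep, against 13.1, 85.8 and 235 CPM in Tsc1Δhep (4.30 ± 0.91, adjusted p = 0.0148). The groups did not overlap in any of the 3, but each call was lost without Tsc1/p62Δhep library 1 (0.0662 for Dcxr, 0.0616 for Sord and 0.0508 for Rgn), and those of Dcxr and Sord also without library 2 of that group (0.0563 and 0.0665). The Rgn call was also lost without Tsc1Δhep library 2 (0.0721).

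Transporters that carry conjugates out of or organic anions into hepatocytes gave 3 higher and 2 lower of 8 (median 0.98). Abcc4, an exporter on the blood side, stood at 7.06, 6.16 and 6.17 CPM in Tsc1/p62Δhep, against 214, 136 and 98.0 CPM in Tsc1Δhep, and fell by 4.53 ± 0.35 (SE; adjusted p = 0.000553). In p62Δhep it had 2.12, 2.26 and 1.84 CPM, against 9.91, 5.87 and 3.57 CPM in p62F/F, which passed with DESeq2 (adjusted p = 0.00747) and not with edgeR (0.332). The uptake carriers Slco1a1 and Slco1b2 rose. Slco1a1 had 261, 432 and 92.8 CPM in Tsc1/p62Δhep, against 0.303, 2.22 and 1.69 CPM in Tsc1Δhep (7.51 ± 0.90, adjusted p = 0.00219). Slco1b2 averaged 3001 ± 139 CPM in Tsc1/p62Δhep and 597 ± 178 CPM in Tsc1Δhep (2.33 ± 0.30, adjusted p = 0.00276).

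Of 14 regulators known to act on genes of this pathway, 4 rose and 0 fell (median 0.71), with 2 to 10 called higher in the fits without 1 library (10 without Tsc1Δhep library 3). Nr1i3, the constitutive androstane receptor, stood at 98.0, 88.6 and 92.6 CPM in Tsc1/p62Δhep, against 1.13, 3.63 and 3.00 CPM in Tsc1Δhep, and its log2 fold change was 5.15 ± 0.44 (SE; adjusted p = 0.000787). Ahr, the aryl hydrocarbon receptor, stood at 117, 70.9 and 123 CPM in Tsc1/p62Δhep, against 7.54, 15.7 and 15.5 CPM in Tsc1Δhep, with 3.00 ± 0.37 (SE; adjusted p = 0.00244). Foxa1 also passed (1.19 ± 0.33, adjusted p = 0.0374), but not without Tsc1Δhep library 2 (0.123), Tsc1/p62Δhep library 1 (0.0684), 2 (0.137) or 3 (0.0990), nor with library totals (0.122).

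Sulfation, the other main route of conjugation, gave 2 higher and 1 lower of 9 tested genes (median 0.18). Papss2, which makes the sulfate donor, averaged 416 ± 80.5 CPM in Tsc1/p62Δhep and 110.4 ± 43.2 CPM in Tsc1Δhep (1.92 ± 0.33, adjusted p = 0.00718). Sult2a7 averaged 2.65 ± 1.58 CPM in Tsc1/p62Δhep and 0.431 ± 0.089 CPM in Tsc1Δhep (2.60 ± 0.53, adjusted p = 0.0131). Sult2b1, a sterol sulfotransferase, had 0, 0 and 1 counts in Tsc1/p62Δhep, against 50, 90 and 20 in Tsc1Δhep. In p62Δhep against p62F/F, edgeR called 0 genes in each of these 6 lists of pathway genes, and DESeq2 called 3 genes lower, which were Abcc4, Sult2a7 and Miox. Sult2a7 had 6.40, 5.61 and 4.63 CPM in p62Δhep, against 32.6, 26.95 and 12.7 CPM in p62F/F (log2 fold change -2.12 by DESeq2, adjusted p = 8.5e-07), opposite in sign to its change with Tsc1 deleted. Miox, the oxygenase that makes glucuronate from inositol, had 7, 2 and 2 counts in p62Δhep, against 12, 87 and 56 in p62F/F (adjusted p = 0.00096 by DESeq2), and edgeR called it without p62F/F library 1 (0.0414).

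Cell type markers also differed between Tsc1/p62Δhep and Tsc1Δhep. Hepatocyte markers gave 4 higher and 0 lower of 10, with a summed level of 86940 to 117410 CPM in Tsc1/p62Δhep and 34081 to 65705 CPM in Tsc1Δhep. Pericentral markers gave 5 higher and 0 lower of 9, with sums of 15317 to 15616 CPM in Tsc1/p62Δhep and 157, 917 and 1934 CPM in Tsc1Δhep libraries 1 to 3. Markers of cholangiocytes and progenitors gave 0 higher and 3 lower of 8 tested, with sums of 105 to 148 CPM in Tsc1/p62Δhep and 5309, 2261 and 795 CPM in Tsc1Δhep. Periportal markers gave 6 higher and 1 lower of 8, stellate markers 0 higher and 4 lower of 9, macrophage and Kupffer markers 0 higher and 4 lower of 9, and male-biased liver genes 6 higher and 0 lower of 9. Female-biased liver genes gave 2 higher (Cyp2b9 and Cyp2b13) and 1 lower (Cyp2a4) of 4 tested, and 0 to 1 higher and 0 to 1 lower without 1 library. The Y chromosome genes Ddx3y and Eif2s3y stood at 64.0 to 138 CPM and 38.15 to 74.3 CPM over all libraries. Endothelial markers gave 0 higher and 1 lower of 8. Several of these counts rest on single libraries. Without Tsc1/p62Δhep library 1, periportal markers gave 2 higher and 0 lower, pericentral markers 3 higher, hepatocyte markers 2 higher, and stellate markers 1 lower. Over the 6 fits without 1 library each, the pericentral count of higher calls was 2 (without Tsc1Δhep library 2) to 9 (without Tsc1Δhep library 3), the cholangiocyte and progenitor count of lower calls 2 to 7 (7 without Tsc1Δhep library 2), the stellate count of lower calls 1 to 4, the macrophage count of lower calls 4 in each, and the male-biased count of higher calls 5 to 6. No marker of these lists was at 0 in a whole group, other than the female-biased Sult2a1 in Tsc1/p62Δhep and Sult3a1 in Tsc1Δhep. Tsc1Δhep library 1, the highest for Ugdh, Ugt2b34 and Ugt2b35 and the lowest for Ugt3a1, had the lowest pericentral sum and the highest cholangiocyte and progenitor sum. Its stellate sum was 57.2 CPM, against 292 and 323 CPM in Tsc1Δhep libraries 2 and 3. Its endothelial sum was 43.3 CPM, against 106 and 222 CPM. The macrophage and Kupffer marker Clec4f had 1 count there, against 752 and 871, while Cd68 had 548, against 596 and 528. That library thus differed from its group in markers of several cell types. Fewer cells of a type and less RNA per cell cannot be told apart in these bulk samples, and the part of these markers in the members' results was not tested. In p62Δhep against p62F/F, edgeR called 0 genes of these lists. DESeq2 called the cholangiocyte and progenitor markers Prom1 (adjusted p = 0.000754) and Tspan8 (0.0341) and the female-biased Cyp2a4 (0.000223) lower, and the pericentral Tbx3 (0.0341) and the macrophage marker Lyz2 (0.0376) higher.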

How the data were processed

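The authors deposited 2 tables of raw gene counts, 1 with Tsc1/p62Δhep and Tsc1Δhep and 1 with p62Δhep and p62F/F, whole numbers with no normalization, as the values show. Aligner, counter, annotation and use of strand: not given in the sources used here. Per the submitters' processing notes the build was hg19, whereas the symbols are of mouse, so no coordinates were taken from the files. Libraries were made with a strand-marking kit and read on either of 2 instruments, as 75-base single or as paired reads, per the labels' protocols, with no statement of which library ran on which.

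Fits were made within each table in edgeR 4.0.16 (R 4.3.3): filterByExpr with a minimum count of 10 and a minimum total of 15, TMM, the quasi-likelihood test, and Benjamini-Hochberg adjustment over all genes at 0.05. The interaction used all 12 libraries. A scale factor common to a table drops out of it, and the effect of Cre does not. Alternatives were DESeq2 1.42.0, limma 3.58.1 on log2(CPM + 1), other scaling, no filter, the replicate number as a block, a joint fit and leaving out libraries. The edgeR fit with TMM, DESeq2, limma and the block fit were tested on simulated data with known fold changes. That simulation used a single dispersion and no outlying library. The other alternatives were not tested in this way. Groups and numbers came from titles. The replicate pairs of a group differed beyond sampling noise (chi-square of 36.2 to 325 per gene). The number of columns from samples outside the series was 0. The members, the lists and the tests were chosen with earlier results of these data known. Named genes are all members, Sqstm1 and Tsc1, and from each pathway list up to 3 tested genes with the smallest p in each comparison, and the 6 genes most correlated with the members' mean. Markers were named after their values were seen. Sequences are from RefSeq and GENCODE tables of GRCm38.p6.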

Additional observations from a re-analysis of the deposited data

Results flagged for a closer look

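The interaction test in edgeR called 4 transferase genes for a change with p62 loss that differed between the Tsc1 backgrounds. It called 2 of 10 members and 2 of 7 other transferases tested, beside 16.1% of all genes. The values are differences of log2 fold changes, with Tsc1 deleted minus with Tsc1 intact. They were 2.24 for Ugt2a3 (adjusted p = 0.0200) and 1.97 for Ugt3a1 (adjusted p = 0.0419) among the members, and -5.04 for Ugt1a7c (adjusted p = 0.00692) and -2.46 for Ugt1a9 (adjusted p = 0.0470) among the other transferases. The Ugt1a7c call held without each of the 12 libraries in turn, but its row was near the floor outside Tsc1Δhep. It had 332, 159 and 57 counts in Tsc1Δhep, against 5, 5 and 2 in Tsc1/p62Δhep. With 5, 7 and 12 counts in p62Δhep and 6, 5 and 7 in p62F/F, its change with Tsc1 intact is uncertain. The Ugt1a9 call held in 3 of the 12 fits without 1 library and was lost in the other 9, with adjusted p-values up to 0.109. Among the members, the Ugt2a3 call held in 10 of the 12 fits without 1 library. The Ugt3a1 call held in 3 of the 12 and was lost with library totals. By the titles the p62F/F mice alone had no Cre, and the effect of Cre does not cancel in these differences.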

How the results depend on the processing

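Across the alternatives, 123 of 130 member values for p62Δhep against p62F/F, 115 of 140 for Tsc1/p62Δhep against Tsc1Δhep and 175 of 190 for the interaction kept their direction and their side of the threshold. No sign turned for a called value. Without 1 library, signs turned for p62Δhep against p62F/F in Ugt2b38 (range -0.54 to 0.36), Ugt3a1 (-0.36 to 0.055) and Ugt3a2 (-0.14 to 0.044), for Tsc1/p62Δhep against Tsc1Δhep in Ugt2b5 (-0.35 to 0.38) and Ugt2b36 (-0.36 to 0.32), and for the interaction in Ugt2b35 (-0.93 to 0.25). The highest value of Ugt2b5, Ugt2b36 and the interaction of Ugt2b35 came without Tsc1Δhep 1. With limma, Ugt2b5 (0.038) and Ugt2b36 (0.046) turned in Tsc1/p62Δhep against Tsc1Δhep. With library totals, Ugt3a2 turned there (-0.0825) and in the interaction (-0.050). The cause was not tested.

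For p62Δhep against p62F/F the 2 genes called became 169 with DESeq2, 4 with limma, 1 with the joint fit and 1 to 49 without 1 library (49 without p62F/F 1, 1 without each of the others). For Tsc1/p62Δhep against Tsc1Δhep the 3053 genes called became 5201 with the joint fit and 1111 to 5825 without 1 library (5825 without Tsc1Δhep 3, 1610 without Tsc1Δhep 2, and 1111, 1182 and 1885 without Tsc1/p62Δhep 1, 2 and 3), and the 2 members called became 5 with DESeq2, 4 with library totals, 5 with the joint fit and 1 to 4 without 1 library. For the interaction the 2127 genes called became 1169 to 4952 without 1 library (4952 without Tsc1Δhep 3, and 1169 to 1408 without Tsc1/p62Δhep 1 or 2, p62F/F 1 or 2, or p62Δhep 2 or 3) and 3904 without Tsc1Δhep 3 and Tsc1/p62Δhep 1 together, a setting chosen after seeing the data, in which 2 members stayed called in each comparison. The 2 members called in the interaction became 1 with library totals and 0 to 3 without 1 library (3 without Tsc1Δhep 1, where Ugt2b1 was called too, and 0 without p62F/F 2 or p62Δhep 2).

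The replicate numbers did not pair the samples: same-numbered libraries correlated at -0.529 to 0.0317 for p62Δhep with p62F/F and -0.129 to -0.0845 for Tsc1/p62Δhep with Tsc1Δhep. Libraries of different numbers correlated at -0.179 to 0.543 and at -0.0367 to 0.109. Each group was centred on its own mean, so these values constrain each other. Whether samples were paired under other numbers was not tested. With the replicate number as a block, genes called were 1 for p62Δhep against p62F/F, 1847 for Tsc1/p62Δhep against Tsc1Δhep and 911 for the interaction, with 0, 2 and 2 members. The block turned Ugt2b5 (0.041) and Ugt2b36 (0.038) in Tsc1/p62Δhep against Tsc1Δhep. With 3 libraries a group, and Tsc1Δhep libraries far apart, small changes of the members could not be told from spread, and Ugt2b38 is limited by its counts.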

Other observations

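The genes whose levels over the 12 libraries were most like the mean of the 10 members, after centring each table on its own mean, were Hsd17b10 (Pearson r = 0.947), Glod4 (0.925), Sult1b1 (0.920), Cisd1 (0.918), Fgfrl1 (0.913) and Ndfip1 (0.910). They are a description over libraries that share group and table. The members themselves varied in how far they followed that mean, from 0.911 for Ugt2b5 and 0.849 for Ugt2b36 to 0.290 for Ugdh and 0.142 for Ugt3a1.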
